A study of Mus musculus with 6 samples.

Results

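The Zic genes encode zinc finger transcription factors, and 4 of them are described here, Zic1, Zic2, Zic4 and Zic5, each with 1 probe among 25697 probes, of which 23978 carried a gene name. The genes were chosen by family name, with the deposited log2 values of these 6 arrays already known, so the genotype differences and correlations of the family are given as descriptions.

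Gene expression was measured on Illumina MouseRef-8 v2.0 bead arrays in tissue labelled as frontal cortex, taken on embryonic day 15 from male mouse embryos of strain C57BL/6J. 3 transgenic embryos carried the bacterial artificial chromosome RP24-333C15, which spans Cyfip1, and 3 wild-type littermates did not. The Cyfip1 protein binds the fragile X protein FMRP and belongs to the WAVE actin complex. The chromosome was injected into C57BL/6J pronuclei, and neither the number of founder lines nor the regulatory sequence driving the extra copy is given in the sources used here. Each embryo had an array of its own, and no animals are said to have been pooled. Samples are numbered within each genotype only to name them.

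Zic proteins bind DNA through a cluster of zinc fingers related to that of the Gli proteins, the transcription factors of Hedgehog signalling. In the developing brain they are known from the dorsal neural tube, the cerebellum, the septum and medial forebrain, and the meninges, more than from the lateral cortical wall. Zic1 and Zic4 act together in cerebellar growth, Zic2 is required for the forebrain midline and for the ipsilateral projection of the retina, and Zic5 for neural crest. In humans, loss of ZIC1 and ZIC4 is linked to Dandy-Walker malformation and loss of ZIC2 to holoprosencephaly.

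These genes lie in neighbouring pairs. In the RefSeq genes of GRCm38.p6, which served for names and gene order only because the array files name no build, Zic1 and Zic4 are next to each other on chromosome 9, on opposite strands with their starts together, and their annotated spans overlap. Zic5 and Zic2 lie on chromosome 14 with 1 long non-coding RNA gene, 2610035F20Rik, between them. The start regions of Zic1 and Zic4 are shown because these were the members that varied together. Each window runs from 250 bases before to 50 bases after an annotated start, is written 5′ to 3′ on the strand of its gene from RefSeq GRCm38.p6, and has its CG dinucleotides in capitals. The Zic1 window is chr9:91365719-91366018 on the minus strand and the Zic4 window is chr9:91368722-91369021 on the plus strand, with 2703 bases between them. The Zic4 window belongs to a start inside the annotated span of the gene.
Zic1: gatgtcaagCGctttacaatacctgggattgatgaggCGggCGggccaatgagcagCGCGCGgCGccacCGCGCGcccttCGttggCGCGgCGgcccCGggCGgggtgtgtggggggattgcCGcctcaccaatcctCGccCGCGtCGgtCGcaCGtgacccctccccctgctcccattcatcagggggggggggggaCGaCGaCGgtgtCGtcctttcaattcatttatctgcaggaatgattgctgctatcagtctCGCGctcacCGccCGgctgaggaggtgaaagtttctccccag
Zic4: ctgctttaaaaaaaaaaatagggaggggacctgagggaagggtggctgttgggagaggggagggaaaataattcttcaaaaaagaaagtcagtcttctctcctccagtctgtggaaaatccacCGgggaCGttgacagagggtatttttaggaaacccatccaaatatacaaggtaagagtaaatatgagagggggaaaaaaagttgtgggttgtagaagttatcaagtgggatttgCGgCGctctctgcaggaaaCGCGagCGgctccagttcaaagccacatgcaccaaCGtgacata

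The Zic1 window held 31 CG dinucleotides and was 65.3% G and C, while the Zic4 window held 8 and was 46.0% G and C. Over 32851 windows of the same length in the table, the medians were 7 CG dinucleotides and 52.7% G and C. The Zic4 window is thus close to the median in CG count, and the Zic1 window lies above 89.4% of all windows. 3 motifs were searched on both strands in the Zic1, Zic4 and Zic5 windows, CAGCAGG for the core of the Zic site, GACCACCCA for the Gli site and TATAAA for the TATA box. None of these letters occurred in the 3 windows, and 10.5%, 0.253% and 13.6% of all windows held them. A window for Zic2 was not used here.

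Before the values, 2 arrays need a remark. Wild-type sample 2 went against its tissue label for most of the cortical markers tested. Tbr1, a transcription factor of cortical projection neurons, had a log2 intensity of 7.09 there against 9.09 to 11.16 in the other 5 samples, and Fezf2, which specifies deep-layer neurons, had one of 6.72 against 8.69 to 11.19. Both values lie below 7.18, the median of all probe means. Dlx1, of ganglionic eminence and its interneurons, stood at 6.79 there against 11.56 to 12.96, while the midbrain and hindbrain gene En2 was at 12.23 against 7.01 to 10.98 and the thalamic gene Tcf7l2 at 12.84 against 9.48 to 12.10. The next highest arrays for both were transgenic sample 3, at 10.98 and 11.05, and wild-type sample 3, at 9.0 and 12.10. Eomes and Sox5 were also lowest in wild-type sample 2, but not every gene of the cortical list was low there. Lhx2, a cortical progenitor gene, stood at 9.51 there, the second highest of the 6 arrays, against 8.05 to 9.57 in the others, and Bcl11b, which is not restricted to cortex, was at 11.43 to 12.47 in all 6 samples. The mean of the 7 tested cortical genes relative to the 6-array mean was -1.24 in wild-type sample 2, -0.70 in transgenic sample 3 and -0.12 to 0.85 in the other 4. Probes of Emx2 and Pax6 were dim. Transgenic sample 1 was bright for muscle and skin genes, with 8 muscle genes on average 2.38 above their 6-array mean and 4 skin genes 1.92 above it. Its mean correlation with the other arrays over all probes was 0.962, against 0.975 to 0.983 for the rest. By the animal numbers of the labels, transgenic sample 1 and wild-type sample 3 form a set of 2 numbered under 100 and the other 4 embryos a set numbered over 200. What the numbers stand for is not given in the sources used here.

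Zic1 was one of the bright probes of the table, above 93.0% to 98.7% of all probes on each array. Its log2 intensity was 11.09, 11.79 and 12.53 in transgenic samples 1, 2 and 3, and 12.69, 12.27 and 12.84 in wild-type samples 1, 2 and 3. Transgenic samples 1 and 2 were lowest, and transgenic sample 3 lay above wild-type sample 2, so the groups overlapped. The spread within the transgenic group, an SD of 0.72, exceeded that within the wild-type group, 0.30. From the lowest to the highest array Zic1 differed 3.37-fold.

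Zic4, the partner of Zic1 in the genome, varied more. Its log2 intensity was 8.02, 9.15 and 10.50 in the transgenic samples and 10.64, 10.18 and 11.19 in the wild-type samples, each in the order 1, 2, 3. The 6 arrays stood in the same order as for Zic1, from transgenic sample 1 through transgenic sample 2, wild-type sample 2, transgenic sample 3 and wild-type sample 1 to wild-type sample 3. The lowest and highest arrays differed 9.0-fold. The SD of Zic4 over the 6 arrays, 1.16, stood at percentile 99.1 of the 12848 probes whose mean lay above the median of all probe means, a group with a median SD of 0.19. The scanner intensity of the Zic4 probe before normalization was lowest, 238.5, in transgenic sample 1 and highest, 1944, in wild-type sample 3.

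Zic2, of the chromosome 14 pair, was dimmer and varied less. It stood at 6.99, 7.80 and 7.63 in transgenic samples 1, 2 and 3, and at 8.35, 7.55 and 8.01 in wild-type samples 1, 2 and 3. Transgenic sample 1 was again the lowest, and there Zic2 lay below the median probe. Wild-type sample 2 lay under transgenic samples 2 and 3, so the groups overlapped.

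Zic5 gave a signal among the dimmest probes of each array. Its log2 intensity was 6.75, 6.76 and 6.56 in the transgenic samples and 6.81, 6.62 and 6.70 in the wild-type samples. It lay above only 1.0% to 23.0% of the probes of an array, and with no detection p-values at hand its signal could not be told from background. The whole range over 6 arrays was 0.25 on the log2 scale.

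**Figure D1:**
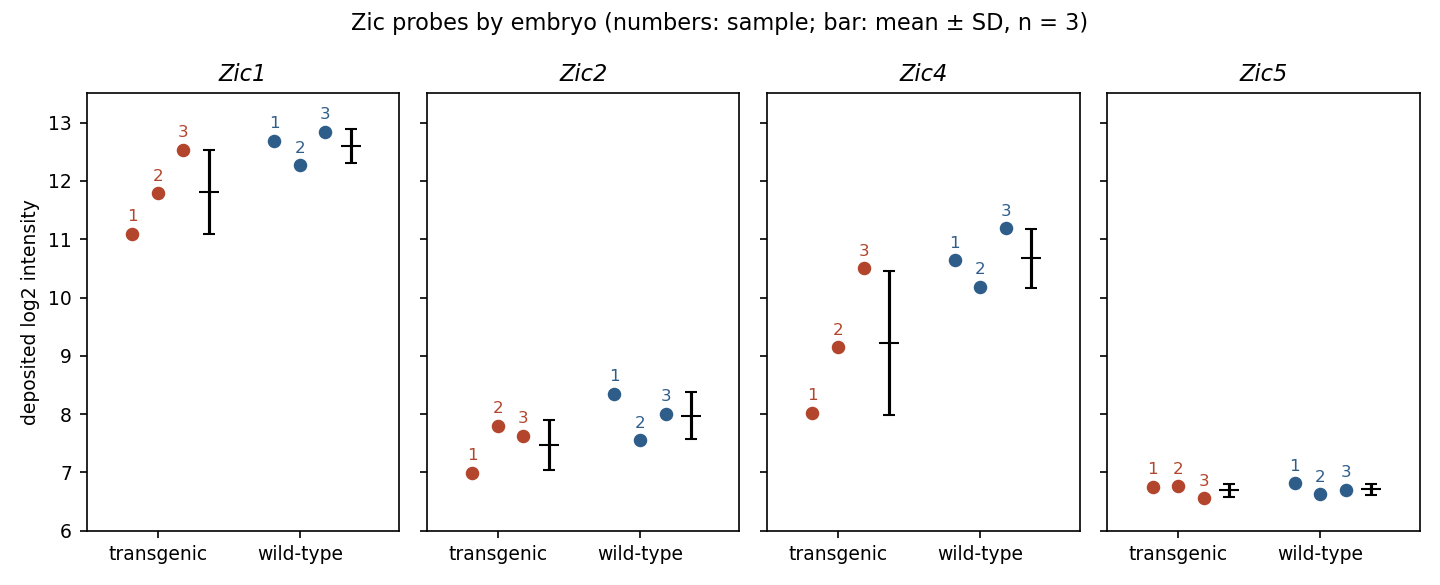
Deposited log2 intensity of the 4 Zic probes in each embryo (numbered points), with the mean and SD of each genotype beside them (n = 3). Zic1 and Zic4 are lowest in transgenic samples 1 and 2, the genotypes overlap for every probe, and Zic5 stays between 6.56 and 6.81.

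The design compares transgenic with wild-type cortex, and here it asks whether carrying the chromosome that spans Cyfip1 goes with a change of the Zic genes. The transgenic mean was below the wild-type mean for Zic1, Zic2 and Zic4, as for 56.2% of the tested probes. None of these Zic differences passed the test. The log2 intensity of Zic4 was 9.22 ± 1.24 (SD, n = 3) with the transgene and 10.67 ± 0.51 (SD, n = 3) without it, which is a difference of -1.45 (SE 0.61), or 2.73-fold. It was the most negative difference among the 12848 probes tested. Zic1 was at 11.80 ± 0.72 and 12.60 ± 0.30, a difference of -0.80 (SE 0.36), which 48 tested probes, Zic1 included, reached or exceeded downwards. Zic2 was at 7.47 ± 0.43 and 7.97 ± 0.40, a difference of -0.50 (SE 0.28). Zic5 was at 6.69 ± 0.11 and 6.71 ± 0.10, a difference of -0.02. Because the tissue is a mixture of cells, fewer Zic-expressing cells and less Zic RNA per cell cannot be told apart.

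3 of the 4 Zic probes passed the intensity filter, which keeps probes whose mean over the 6 arrays is above the median, and 0 of these 3 were called at a limma adjusted p under 0.05. Over all 12848 tested probes limma also called 0, or 0%, while an unadjusted p under 0.05 was reached by 446 probes upwards and 451 downwards, a split that became 776 and 106 when arrays were scaled to a common median. The limma adjusted p was 0.675 for Zic1, Zic2 and Zic4. With 3 arrays a group, an exact permutation test of a single probe cannot give a two-sided p below 0.1. The groups did not overlap for 0 of the 4 Zic probes, against 14.2% of the tested probes. The median difference of all tested probes was -0.03.

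The size of these differences depended on single arrays. Without transgenic sample 1, the array bright for muscle and skin genes, the differences shrank to -0.85 for Zic4, -0.44 for Zic1 and -0.25 for Zic2. Array weights gave -0.77, -0.40 and -0.25 in the same order. Without wild-type sample 1 the Zic2 difference was -0.30. Within the animals numbered under 100, transgenic sample 1 against wild-type sample 3, the differences were -3.17 for Zic4, -1.75 for Zic1 and -1.02 for Zic2. Among the 4 animals numbered over 200 they were -0.59, -0.32 and -0.23. Without wild-type sample 2, the array that went against its tissue label, the differences grew to -1.69 (SE 0.70), -0.96 (SE 0.41) and -0.71 (SE 0.28), and the limma adjusted p of each was 0.928. In that smaller comparison of 3 with 2 embryos the groups no longer overlapped for Zic1, Zic2 and Zic4, as for 20.2% of the tested probes. The gap was narrow for Zic4, with the highest transgenic value at 10.50 and the lowest wild-type value at 10.64.

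**Figure D2:**
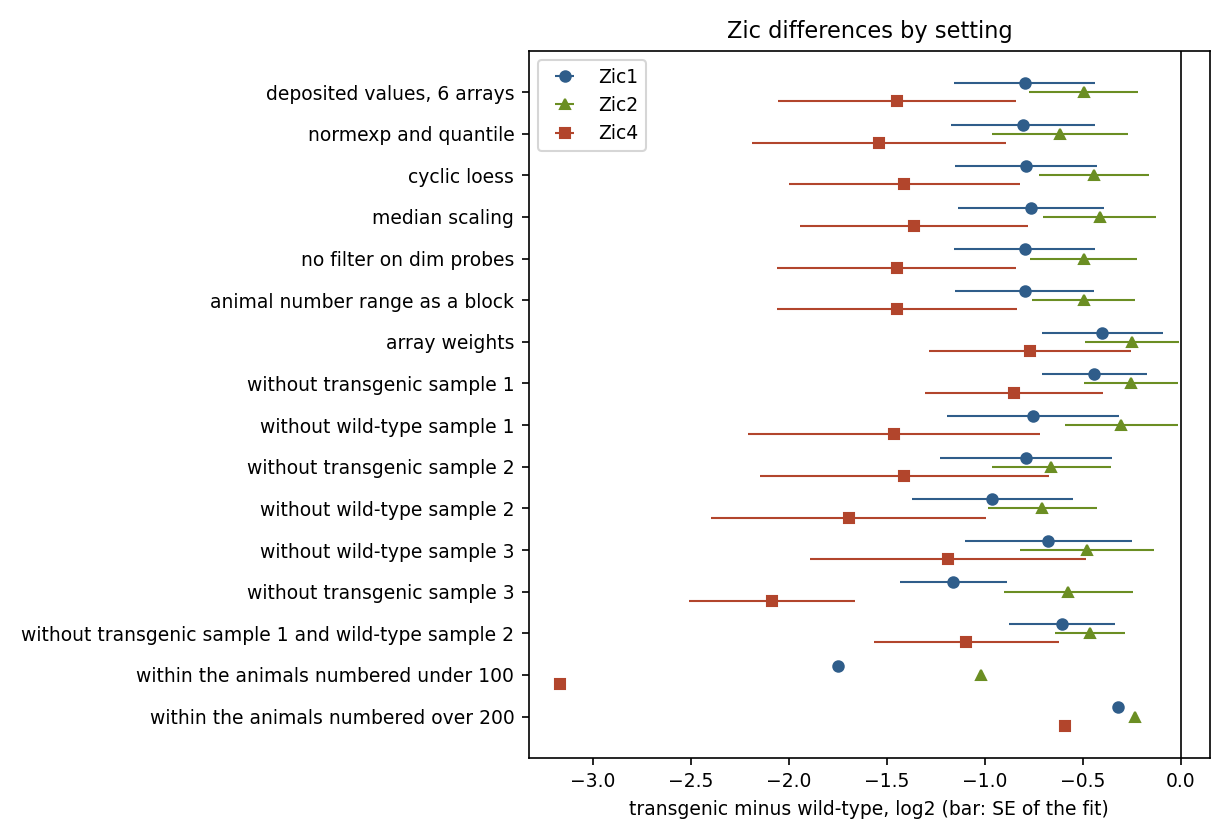
Transgenic minus wild-type difference of Zic1, Zic2 and Zic4 on the log2 scale under each normalization, model and choice of arrays, with the SE of the limma fit as a bar where a model was fitted. Zic4 lies between -3.17 and -0.59, Zic1 between -1.75 and -0.32 and Zic2 between -1.02 and -0.23, all below 0.

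Zic1 and Zic4 followed each other closely over the 6 arrays. Pearson's r was 0.996 and Spearman's rho 1.0 (n = 6 embryos, each on its own array). With the mean of each genotype removed r was 0.993, and with transgenic samples 1 and 2 left out, the arrays farthest from the Zic1 median, it was 0.952 over the remaining 4. It was 0.987 among the 4 animals numbered over 200. A difference of 1 in the log2 level of Zic1 went with one of 1.76 in Zic4. Among the 12847 other probes that passed the filter, Zic4 had the highest r with Zic1, and Zic1 the highest with Zic4. With so few arrays high values are common, and 1.53% of the tested probes had an r of at least 0.9 with Zic1 and 1.49% with Zic4.

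Zic2 followed them less closely. Its r was 0.809 with Zic1 and 0.765 with Zic4, with a rho of 0.771 for both. Leaving out transgenic samples 1 and 2, the arrays farthest from the Zic1 median, gave an r of 0.730 with Zic1 and 0.549 with Zic4. The arrays farthest from the Zic2 median were the first sample of each genotype, and dropping those gave 0.332 and 0.322. Transgenic sample 1 carried much of the correlation of Zic2 with both genes, since without it r was 0.466 with Zic1 and 0.362 with Zic4. With the genotype means removed the values were 0.691 and 0.615. Among the animals numbered over 200 they were 0.414 and 0.280. Counted over all probes that passed the filter, Zic1 took place 653 and Zic4 place 968 among those most like Zic2.

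Zic5, near background, followed none of them. Its r was 0.299 with Zic2, its neighbour on chromosome 14, -0.259 with Zic1 and -0.304 with Zic4, with rho of 0.486, -0.086 and -0.086, and the sign of each depended on which arrays were included.

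**Figure D3:**
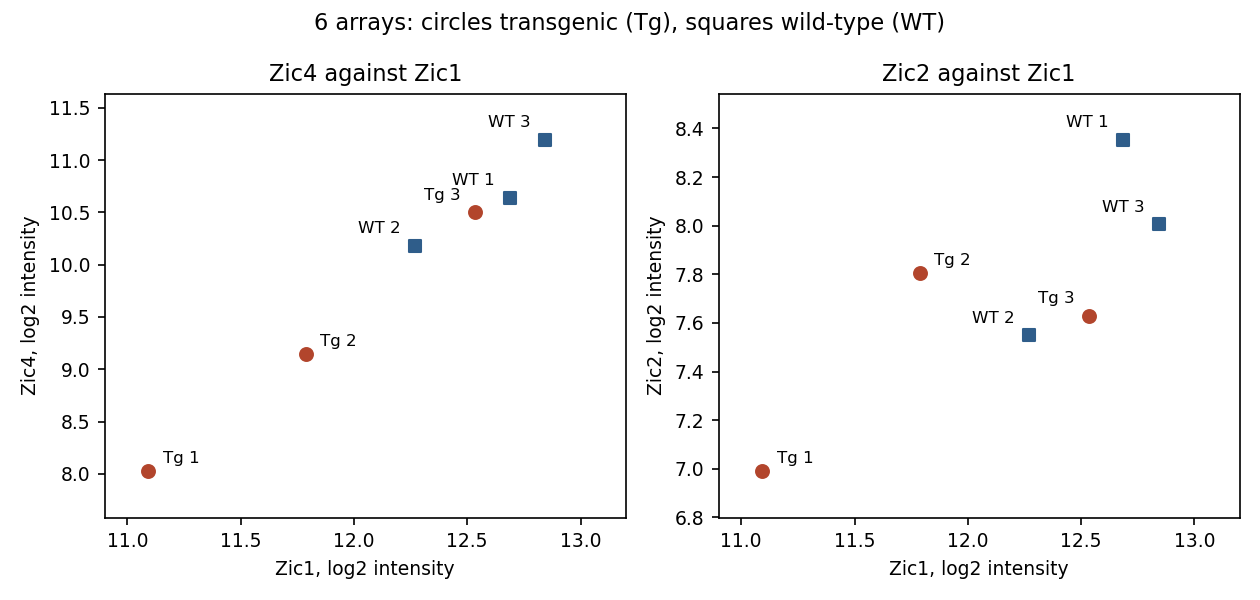
Log2 intensity of Zic4 (left) and Zic2 (right) against Zic1 in the 6 arrays, circles for transgenic (Tg) and squares for wild-type (WT) samples. Zic4 keeps the order of Zic1 in all 6 arrays, while for Zic2 transgenic sample 1 stands apart at the lower end and the other 5 scatter.

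The genes most like each Zic gene by Pearson's r over the 6 arrays had smaller ranges than Zic4, but not always smaller than the Zic gene they followed. For Zic1 they were Trp53bp1, a DNA damage response protein (r = 0.993), Coq4 of coenzyme Q synthesis (0.991), Nat8f4 (0.990), the kinase Mok (0.989) and Prdm4 (0.989), which ranged over 0.34 to 0.74 on the log2 scale. For Zic4, Coq4 (0.993), Trp53bp1 (0.987) and Nat8f4 (0.986) recurred, beside Arnt2, a partner of hypothalamic bHLH-PAS factors (0.990), and the G protein subunit Gng2 (0.986). For Zic2 the list was a different one, with the metallo-beta-lactamase domain gene Mblac2 (0.993), the presynaptic adhesion molecule Nrxn3 (0.991), the small GTPase Rap2a (0.991), the receptor Gpr27 (0.988) and the postsynaptic scaffold Dlg2 (0.984). Nrxn3 and Dlg2 ranged 4.01-fold and 3.18-fold over the arrays, more than Zic2 itself at 2.57-fold. Their differences between genotypes were -0.80 (SE 0.37) and -0.64 (SE 0.33).

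The chromosomal neighbours did not vary with the pairs in a uniform way. The nearest gene with a probe beyond Zic4 was Plscr1, a phospholipid scramblase 9 places on in gene order, whose probes had r of 0.28 and -0.29 with Zic4 and differed between genotypes by -0.02 and 0.02. On the other side of Zic1 it was Tbc1d2b, a Rab GTPase-activating protein 16 places away, with an r of -0.45 with Zic1 and a difference of 0.06 (SE 0.31). Beyond Zic2 it was Pcca, a subunit of propionyl-CoA carboxylase, whose probes disagreed, with r of 0.95 and 0.34 with Zic2 and differences of -0.22 (SE 0.26) and 0.05 (SE 0.15). No probe carried the name Cyfip1, so expression from the transgene was not analysed here.

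Since Zic genes mark several tissues beside the cortical wall, the levels of marker lists were set beside them, each as the mean of its tested genes relative to the 6-array mean. The list of septum and ventral forebrain ran with Zic1 in the 5 arrays other than wild-type sample 2. It stood at -0.19, -0.06 and 0.64 in transgenic samples 1, 2 and 3 and at 0.94, -2.21 and 0.88 in wild-type samples 1, 2 and 3. Over 6 arrays its r with Zic1 was 0.339 and rho 0.771, and with transgenic samples 1 and 2 left out r was 0.886. Without wild-type sample 2, a choice made after the values were seen, r was 0.959 with Zic1 and 0.954 with Zic4. The 3 brightest of the 7 genes tested were Nkx2-1, the regulator of ventral telencephalon, at 8.43 to 11.42 in the 5 other arrays and 6.81 in wild-type sample 2, Dlx1, and Isl1, a LIM homeobox gene, at 11.23 to 12.27 and 8.60. Over the 6 arrays r with Zic1 ran from 0.11, for Dlx1, to 0.95 among the 7 genes, with 0.49 for Nkx2-1 and 0.16 for Isl1. The highest r was that of Six3, an anterior forebrain gene of the same list, which ranged from 7.09 to 7.88. In wild-type sample 2, where the ventral list was lowest, Zic1 was still at 12.27 and Zic4 at 10.18.

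In that array the lists of cerebellum and hindbrain and of thalamus and midbrain were highest, at 1.08 and 1.17. Their r with Zic1 was 0.226 and 0.386, and with transgenic samples 1 and 2 left out it was -0.764 and -0.624. Gbx2, a gene of thalamus and anterior hindbrain, had an r of 0.69 with Zic1, from 7.29 in wild-type sample 2 to 11.80 in wild-type sample 3. Irx3 and Meis2, the other brightest genes of the hindbrain list, had r of -0.28 and -0.34. Otx2 and Tcf7l2, those of the thalamic list, had 0.22 and 0.45. Over the tested genes r with Zic1 ran from -0.85 to 0.69 in the hindbrain list and from -0.44 to 0.69 in the thalamic list. The list of Cajal-Retzius cells and cortical hem, cells of the medial and outer cortex among which Zic genes are known, had an r of 0.498 that turned to -0.944 with the same samples left out. Reln, the secreted protein of Cajal-Retzius cells, was at 11.93 in transgenic sample 1 and 12.34 to 13.22 in the others. Its r with Zic1 was 0.59, while Calb2 and Ebf3, the other brightest genes of the list, had 0.69 and 0.05.

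Meningeal and fibroblast genes ran opposite to Zic1, with an r of -0.641 that rested on transgenic samples 1 and 2, since it was 0.168 without them. Their mean was 1.03 in transgenic sample 1, 0.25 to 0.31 in transgenic samples 2 and 3 and wild-type sample 1, and -0.98 and -0.90 in wild-type samples 2 and 3. 13 of the 14 tested meningeal genes lay above 0 in the genotype difference, with a median of 0.96, and 0 passed the test. The proteoglycan gene Dcn was highest, at 12.62, in transgenic sample 1 and lowest, at 8.70, in wild-type sample 3, where Zic1 and Zic4 were highest. Its r with Zic1 was -0.61, while the other brightest genes of the list, Igf2 and Slc6a13, had -0.50 and 0.04. Over the 14 tested meningeal genes r with Zic1 ran from -0.86 to 0.56. Genes of the dorsal midline and roof plate were also opposite, with an r of -0.623 (0.072 with transgenic samples 1 and 2 left out). 6 of its 12 genes were bright enough to be tested, and all 6 lay above 0 with a median of 0.96, while 0 passed. The genotypes did not overlap for Lmx1a, Msx1 and Bmp4, with differences of 0.88 (SE 0.27), 1.20 (SE 0.20) and 1.47 (SE 0.48). Of the 14 tested meningeal genes they did not overlap only for Col3a1, 2.01 (SE 0.64), and Foxd1, 0.89 (SE 0.28). Of the 8 tested muscle genes they did not overlap only for Myog, -0.15 (SE 0.10), which stayed between 7.15 and 7.36. Over all tested probes the share without overlap was 14.2%, close to the shares in the meningeal and muscle lists. For muscle genes, transgenic sample 1 was highest at 2.38 and had the lowest values of Zic1, Zic2 and Zic4, but wild-type sample 3 was next at 0.92 and had the highest Zic1 and Zic4 values. Choroid plexus genes had the largest median difference between genotypes of the marker lists, 1.46, with 7 of the 8 tested above 0 and 0 passing the test. Their mean stood at -0.01, 0.34 and 1.77 in transgenic samples 1, 2 and 3 and at -1.36, -0.97 and 0.24 in wild-type samples 1, 2 and 3. The genotypes did not overlap for 3 of the 8, Clic6, the water channel gene Aqp1 and Ecrg4, with differences of 2.08 (SE 0.69), 2.15 (SE 0.61) and 1.78 (SE 0.42), against 14.2% of the tested probes. They overlapped for the remaining genes, among them Ttr and Otx2, which with Ecrg4 were the brightest of the list. Ttr ranged from 7.33 to 14.57 and differed by 3.02 (SE 2.06), and Otx2 differed by -0.06 (SE 1.24). The list had an r of -0.031 and a rho of -0.086 with Zic1, and an r of 0.131 with transgenic samples 1 and 2 left out. The r of the skin and frontal cortex lists with Zic1 was -0.643 and -0.414, and 0.736 and 0.984 without those samples. Of the other lists, 5 of 7 frontal cortex genes (median 0.87), 5 of 7 septal and ventral genes (0.34), 7 of 8 muscle genes (0.49) and 3 of 4 skin genes (0.58) lay above 0. 9 of 10 thalamic and midbrain genes (-0.43), 7 of 12 cerebellar and hindbrain genes (-0.26) and 6 of 8 genes of Cajal-Retzius cells and hem (-0.20) lay below 0, and 0 passed in any of these lists. Among all tested probes 56.2% lay below 0, close to the share in the cerebellar and hindbrain list. With wild-type sample 2 alone left out, r with Zic1 was -0.772 for the meningeal list, -0.741 for roof plate and 0.636 for Cajal-Retzius cells and hem. For thalamus and midbrain it was 0.529, for cerebellum and hindbrain 0.301 and for choroid plexus -0.010. For frontal cortex, muscle and skin it was -0.546, -0.545 and -0.657. The part of these tissues in the Zic differences was not tested.

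**Figure D4:**
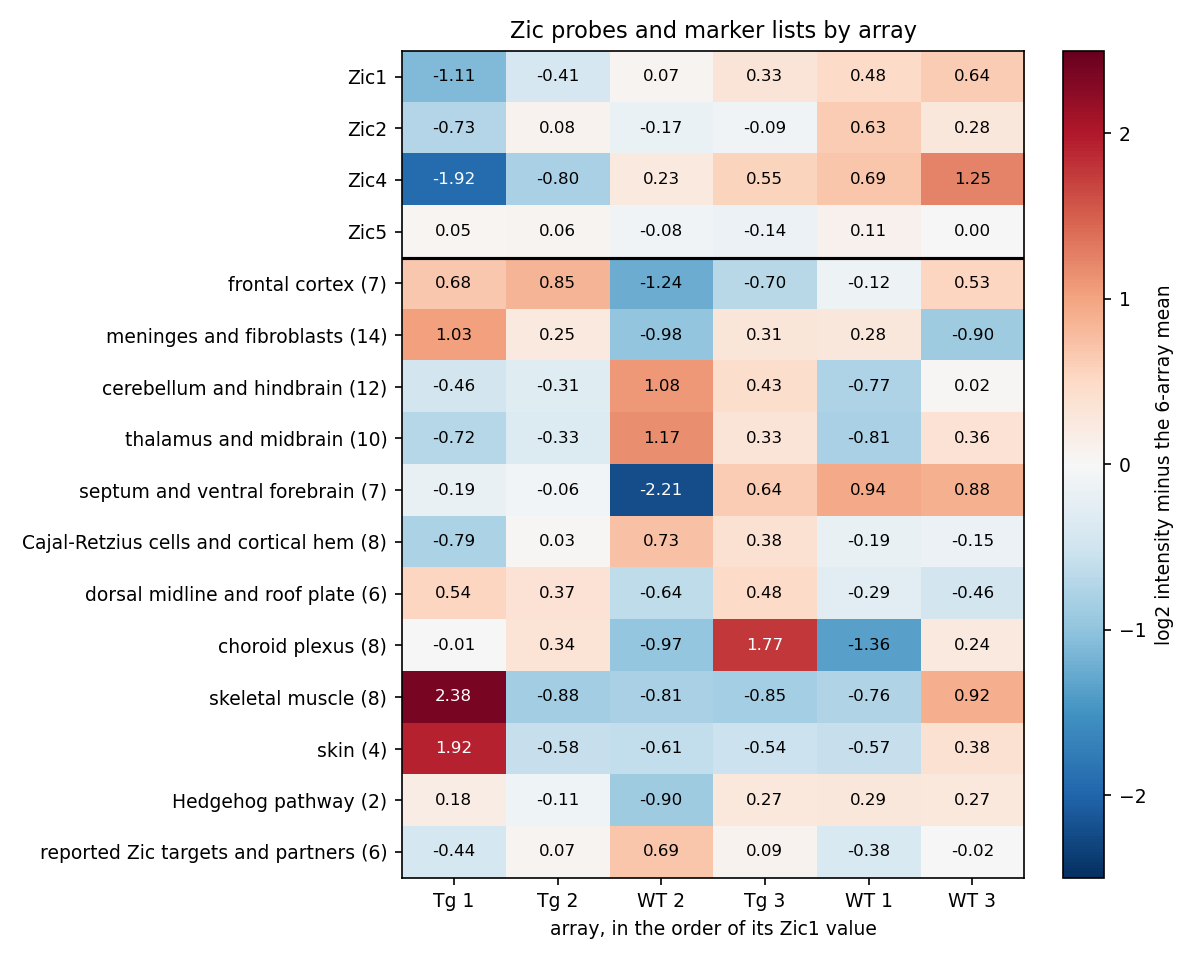
Log2 intensity relative to the 6-array mean for the Zic probes (top) and for the mean of each marker list (bottom, number of tested genes in parentheses), with arrays in the order of their Zic1 value. Wild-type sample 2 is high for thalamus, midbrain and hindbrain and lowest, at -2.21, for septum and ventral forebrain, and transgenic sample 1 is highest for muscle, skin and meninges.

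The Hedgehog pathway, whose Gli factors share the Zic type of zinc finger, was poorly covered. 10 of its 13 listed genes had a probe and 2 passed the filter, the ligand Shh with a difference of 0.01 (SE 0.58) and the transducer Smo with 0.44 (SE 0.38). Probes of Gli1, Gli3 and Ptch1 were too dim to be tested. Of 12 genes reported as targets or partners of Zic proteins, 6 were tested, 2 above 0 and 4 below. Their median was -0.27 against -0.03 over all tested probes, of which 56.2% lay below 0. Ephb1, the guidance receptor that Zic2 controls in the retina, ranged from 10.66 in transgenic sample 1 to 12.63 in wild-type sample 2 and differed by -0.34 (SE 0.46). The Wnt target Axin2 differed by -0.30 (SE 0.30) and Apoe, the lipid carrier, by 0.63 (SE 0.34). Tcf7l2, also on this list, had the difference of largest size among the 6, -1.24 (SE 0.87). The genotypes overlapped for all 8 tested entries of these 2 lists, and 0 passed.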

How the data were processed

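The labels' genotype set the groups of the 6 arrays. Per the labels' protocols, 200 ng of total RNA per embryo was amplified, biotin-labelled and hybridised. The deposited scanner table holds linear intensity values, and the submitters' processing notes name BeadStudio, with version and settings not given in the sources used here. The authors' deposited table of log2 values is not centred and has a median of 7.18 in every array. Quantile-normalizing the scanner table's log2 intensities, with no background step, gave the same values to within 5e-09. These log2 values were used here. 12848 probes whose mean exceeded the median of all 25697 probe means were fitted with limma 3.58.1 in R 4.3.3 (two-sided test of transgenic minus wild-type with lmFit, eBayes and no covariate), with Benjamini-Hochberg adjustment over all of them and a threshold of 0.05. The fit was tested on simulated data. For Zic5, below the filter, the difference of means is given.

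Probes were named through the platform annotation, with 23978 under 1 gene symbol, 0 under several and 1719 unnamed, and 23962 gene identifiers were found in RefSeq. Correlations are Pearson's r and Spearman's rho, without p-values. Named genes are every Zic probe, the 5 genes of highest r with each Zic gene past the filter, up to 3 bright members of a marker list, members of the Hedgehog and target lists whose groups did not overlap, and the nearest genes with a probe. Not every bright member of a list is named. Further genes (Fezf2, Lhx2, Eomes, En2, Clic6, Aqp1, Six3, Lmx1a, Col3a1, Foxd1, Myog, Shh, Smo, Ephb1, Axin2 and Apoe) were named after their values were seen. Each list gene was represented by its brightest probe. The members and lists were chosen with earlier results of these data known. The labels do not say that embryos came from separate litters, so p-values measure the spread between these samples. Alternatives were normexp correction with an offset of 50, cyclic loess, median scaling, no filter, the animal number range as a block, array weights and leaving out arrays. The number of arrays limits the precision.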

Additional observations from a re-analysis of the deposited data

How the results depend on the processing

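The number of probes past the threshold was 0 in all 13 alternatives, those that left out arrays included, and the differences of Zic1, Zic2 and Zic4 stayed below 0 in each. With 1 array left out, Zic1 ranged from -1.16 to -0.44, Zic2 from -0.71 to -0.25 and Zic4 from -2.09 to -0.85. Under normexp correction, cyclic loess and median scaling, Zic4 lay between -1.54 and -1.36 and Zic1 between -0.80 and -0.76. The dimmer Zic2 lay between -0.62 and -0.41 under them. The Zic5 difference of -0.02 ranged from -0.064 to 0.046 with 1 array left out and was 0.052 within the animals numbered under 100. The correlation of Zic1 with Zic4 ranged from 0.988 to 0.998 with 1 array left out. That of Zic1 with Zic2 ranged from 0.466 to 0.882, was 0.432 when transgenic sample 1 was left out together with wild-type sample 2, and 0.691 with genotype means removed. That of Zic2 with Zic4 ranged from 0.362 to 0.848 and was 0.363 and 0.615 under the same choices. When the 2 arrays farthest from the Zic2 median were dropped, r was 0.322 for Zic2 with Zic4 and 0.332 for Zic1 with Zic2. For Zic5, leaving out the 2 arrays farthest from the median of the first gene turned r to 0.534 with Zic1 and to 0.386 with Zic4, and with 1 array left out its r with Zic2 ranged from -0.145 to 0.818. The cause was not tested. Every Zic gene had 1 probe, so no other probe could be tried. No paired analysis was possible because the sample numbers carry no pairing in the labels.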
